A study of Mus musculus with 6 samples.

Results

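Variant histones are the histone proteins made from genes outside the set that is transcribed in bulk during DNA replication. Here, 10 genes for them, named by their symbols in the deposited table, are described out of 28789 genes. They are H3f3a and H3f3b, H2az1 and H2az2, H2ax, the linker histones H1f0 and H1f10, Macroh2a1 and Macroh2a2, and Cenpa. All 10 symbols were found, each once. RNA was taken from TCMK1 cells, a mouse line of renal tubular epithelial cells, and a poly(A) fraction was sequenced in paired ends. All 6 libraries came from cells treated with angiotensin II (Ang II): 3 were labelled as control and 3 as overexpressing YOD1, an enzyme that removes ubiquitin from proteins. The labels give no dose or time of Ang II, no vector or promoter for YOD1 and no library without Ang II, and they leave unsaid whether the replicates were grown as separate cultures. The p-values therefore rest on the spread among these libraries, which may be only technical.

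Nucleosomes are assembled from the core histones H2A, H2B, H3 and H4, with linker histone H1 on the DNA between them. Replication-dependent histone genes are transcribed in S phase and their transcripts end in a conserved stem-loop in place of a poly(A) tail. Variant histone genes are transcribed throughout the cell cycle or in other phases, mostly carry introns, and give polyadenylated transcripts, so that a poly(A) library is expected to hold them. H3.3 marks active genes and telomeres, H2A.Z sits at promoters, H2A.X is phosphorylated at DNA breaks, macroH2A is found in silent chromatin such as the inactive X chromosome, and CENP-A defines the centromere.

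The transcript sequences were searched for the 3' stem-loop, because it separates the transcripts a poly(A) selection should hold from those it should lose. The element was taken from these transcripts themselves, as the run of 16 bases that stood after the stop codon in the most replication-dependent histone genes annotated in GENCODE M21, which was 23 of 60. It was then searched on the transcript strand of all annotated transcripts with up to 3 mismatches, an allowance chosen with the H2ax site known. Among the 10 genes, H2ax was the only one with a match, with 3 mismatches. H3f3b came next with 4, at a site before its reading frame, and the other 8 had 5 or 6. The H2ax site is shown beside the derived element, with capitals marking the bases they share.

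H2ax: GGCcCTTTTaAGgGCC

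replication-dependent histones: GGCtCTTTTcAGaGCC

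The H2ax site began at base 547 of a transcript of 1384 bases, 46 bases after the stop codon, and 822 bases of annotated transcript followed it. As background, H2ax is known to give both a short transcript that ends at the stem-loop and a long polyadenylated one. With up to 3 mismatches the element was found in 39 of 60 replication-dependent histone genes (65.0%), in 3.94% of the 11382 tested genes with annotated transcripts and in 1.79% of all 55450 annotated genes. The poly(A) signal hexamer AATAAA, or its frequent variant form with T at the second base (ATTAAA), lay in the last 60 bases of a protein-coding transcript for 9 of the 10 variant histone genes, against 22.0% of replication-dependent histone genes and 87.0% of tested genes. Macroh2a1 had neither hexamer in that window. A match or its absence describes only these letters in the annotation.

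Pairs of variant histone genes encode the same or nearly the same protein from coding sequences that differ, which bears on whether reads can be assigned to 1 gene. H3f3a and H3f3b encode H3.3. The first 60 coding bases of each follow, with differing bases in capitals.

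H3f3a: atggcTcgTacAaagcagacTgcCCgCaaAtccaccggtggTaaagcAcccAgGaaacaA

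H3f3b: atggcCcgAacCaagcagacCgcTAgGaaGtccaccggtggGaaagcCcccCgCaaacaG

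Over 411 coding bases the sequences differed at 95 positions (76.9% identity), with a longest identical run of 23 bases. H2az1 and H2az2 encode the closely related proteins H2A.Z.1 and H2A.Z.2 and are shown in the same way.

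H2az1: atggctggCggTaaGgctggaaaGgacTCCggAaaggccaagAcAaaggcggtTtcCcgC

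H2az2: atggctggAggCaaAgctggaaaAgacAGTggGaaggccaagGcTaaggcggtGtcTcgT

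Their coding sequences of 387 bases differed at 81 positions (79.1% identity), with a longest identical run of 14 bases. Processed pseudogenes taken by their symbols as like H3f3a are listed apart in the table: H3f3a-ps1, H3f3a-ps2 and H3f3c together stood at 2.96 to 8.49 FPKM, or 7.09% to 11.7% of H3f3a in the same library. Their sequences were not compared with H3f3a or H3f3b, and pseudogenes of H3f3b, H2az1 and H2az2 were not looked for. The antisense transcript H3f3aos stood at 0.270 to 0.672 FPKM. The sources used here do not give how the authors' counting divided reads between such loci, so the H3f3a value, and possibly those of the other genes, are uncertain to that extent.

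The YOD1 label was checked on its gene. Yod1 stood at 0.842, 0.757 and 0.684 FPKM in the controls and at 1.73, 7.56 and 1.86 FPKM in the YOD1 libraries. The groups did not overlap, a separation that 28.9% of tested genes showed, and YOD1 library 2 was by far the highest. The 9 tubular epithelial markers reported, keratins 8, 18 and 19, Cdh1, Epcam, Cdh16, Pax2, Pax8 and Lrp2, all reached 1 FPKM, with a summed level of 705 to 816 FPKM in controls and 781 to 1033 FPKM in YOD1 libraries. Most of that sum was keratin 18 (Krt18), at 482 to 587 and 595 to 820 FPKM. Pax8 stood at 34.0 to 40.7 and 25.7 to 28.3 FPKM and Cdh16 at 69.0 to 73.4 and 49.8 to 58.3 FPKM. Both were lower in the YOD1 libraries with no overlap. Krt18 and keratin 8 (Krt8, 23.3 to 29.9 and 30.0 to 42.4 FPKM) were higher there with no overlap. The groups overlapped for the remaining tubular markers, and lay apart for 28.9% of all tested genes. Of 5 endothelial markers 0 reached 1 FPKM in any library. The sum of 5 leukocyte markers was 12.9 to 23.0 and 12.6 to 15.6 FPKM, nearly all of it Cd68, a lysosomal protein, while Ptprc and Cd3e stayed under 0.1 FPKM. The sum of 5 fibroblast markers was 11.4 to 13.9 and 5.87 to 12.5 FPKM. The share of transcripts of rRNA origin in summed FPKM was 0.473% to 0.867% in controls and 2.30% to 4.12% in YOD1 libraries. With FPKM rescaled without rRNA genes, the log2 fold changes of the 10 variant histone genes ran from -0.45 (H3f3a) to 0.43 (H2ax) and 0 were called. The part of the other differences in the results below was not tested. FPKM gives no read depth.

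The 10 variant histone genes fell into 3 ranges of level, and FPKM is scaled to transcript length, so levels can be set beside each other. H3f3b, H2az1 and H1f0 had means over all 6 libraries of 449.6, 406 and 299 FPKM. H2az2, H3f3a, H2ax, Cenpa and Macroh2a1 had means of 55.1, 51.02, 29.1, 20.4 and 15.0 FPKM, and Macroh2a2 and H1f10 had 3.44 and 2.66 FPKM. The first 3 genes held 85.1% to 88.7% of the summed level of all 10. Neighbours in this order were not all separate. H3f3b exceeded H2az1 in 5 of 6 libraries, H2az1 exceeded H1f0 in 5, H2az2 exceeded H3f3a in 3, H3f3a exceeded H2ax in 5 and Macroh2a2 exceeded H1f10 in 4, while the other 4 steps held in all 6.

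**Figure D1:**
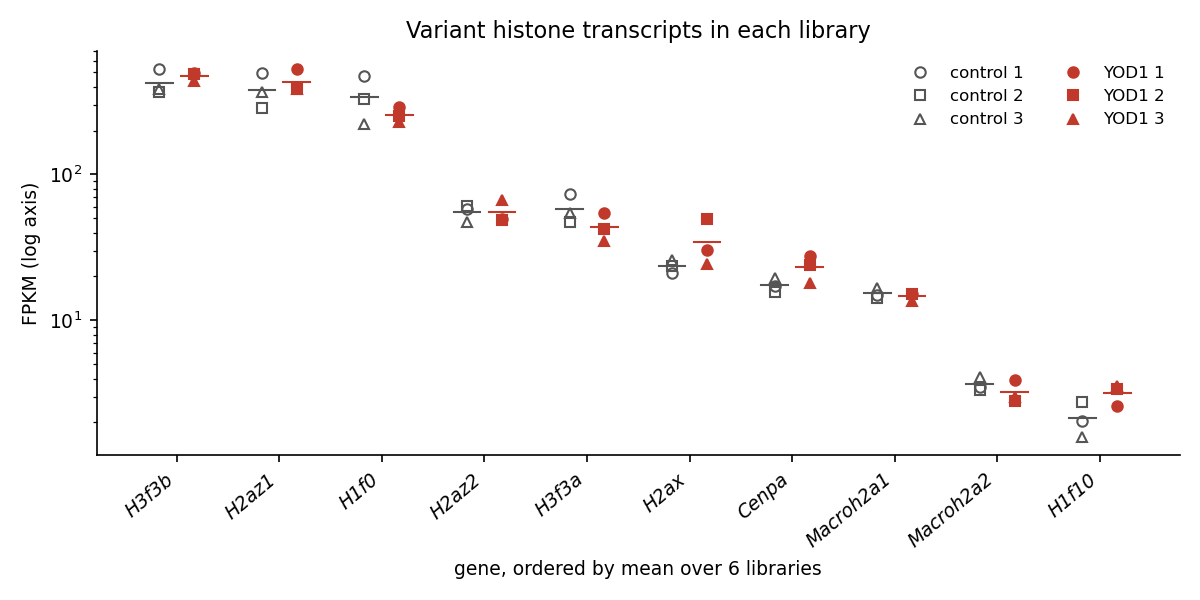
FPKM (log axis) of each variant histone gene, ordered by its mean over all libraries. Open symbols are the 3 control libraries, filled symbols the 3 YOD1 libraries, the shape gives the replicate number and the bars are group means. The 3 most abundant genes sit between 221.6 and 526 FPKM, and each gene's groups overlap.

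None of the 10 genes passed the test across all genes. With limma on log2(FPKM + 1), with Benjamini-Hochberg adjustment over 11483 tested genes at a threshold of 0.05, 0 of the 10 were called, where 0.479% of all tested genes were. At an unadjusted limma p under 0.05 there was 1 of 10, H1f10, against 20.9% of tested genes. In 0 of 10 did the groups lie apart, against 28.9% of tested genes. By the mark of significance in the authors' deposited table, which 0.993% of its genes carry, 0 of the 10 were significant. The log2 fold changes ran from -0.40 to 0.48, 5 above 0 and 5 below, with a median of 0.08 against -0.10 over all tested genes. The sum of the 10 genes was 1323 ± 312 FPKM in controls and 1341 ± 143 FPKM in YOD1 libraries (SD, n = 3 each). Fewer cells that make a transcript and less of it per cell cannot be told apart in such samples.

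**Figure D2:**
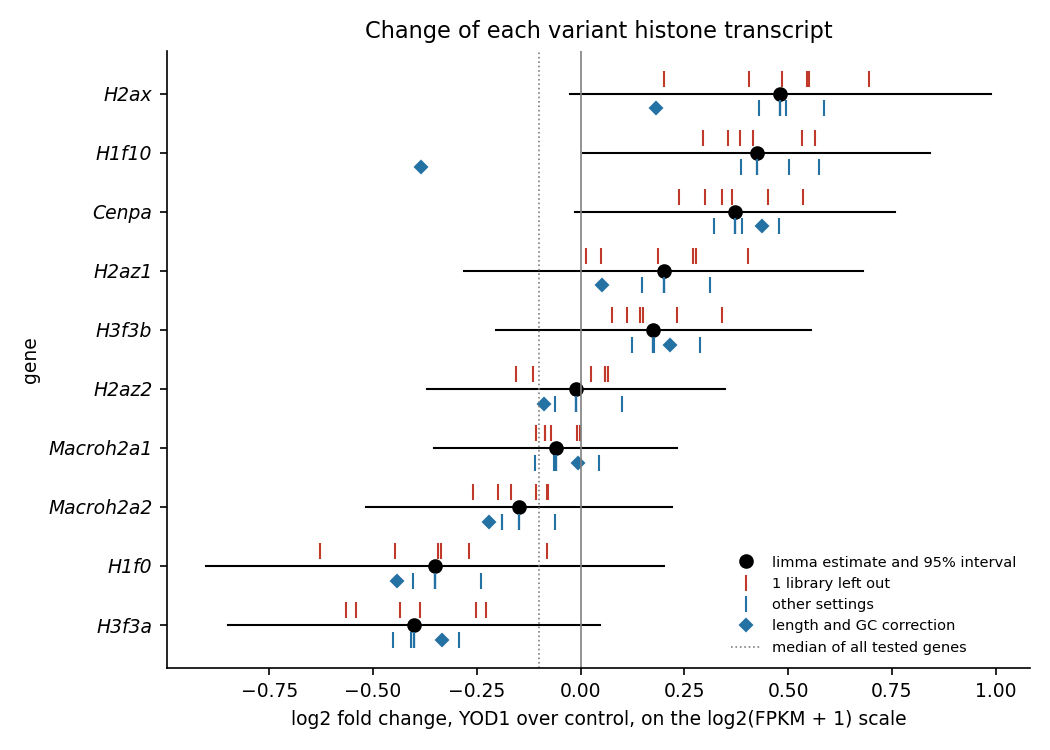
Log2 fold change of each gene, YOD1 over control, on the log2(FPKM + 1) scale. Circles and lines are the limma estimate and its 95% interval, upper ticks the values with 1 library left out, lower ticks other settings, diamonds the correction for transcript length and GC content, and the dotted line the median of all tested genes (-0.10). The interval of H1f10 alone lies to 1 side of 0 (0.01 to 0.84), and its diamond lies on the other side (-0.39).

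H3.3 is encoded by H3f3a and H3f3b, and transcripts of the latter were the more abundant in every library. H3f3b stood at 526, 365 and 383 FPKM in the controls and at 495, 490.3 and 438 FPKM in the YOD1 libraries. All YOD1 values lay within the range of the controls, whose replicate 1 was the highest of the 6. Its log2 fold change was 0.18 with an interval of -0.20 to 0.55 (limma adjusted p = 0.556), and it was 0.34 without control 1, 0.08 without control 2 and 0.11 without control 3. With median-ratio scaling it was 0.29. H3f3a stood at 73.1, 46.9 and 54.6 FPKM in the controls and at 54.4, 42.2 and 34.9 FPKM in the YOD1 libraries. YOD1 libraries 2 and 3 lay below all controls and YOD1 library 1 lay among them. On the log2 scale the fold change was -0.40 with an interval of -0.85 to 0.05 (limma adjusted p = 0.276), and -0.23 without control 1 and -0.25 without YOD1 library 3.

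A ratio taken within a library is not moved by the scaling of that library. The ratio of H3f3b to H3f3a was 7.20, 7.78 and 7.02 in the controls and 9.10, 11.6 and 12.5 in the YOD1 libraries. The groups did not overlap, and their means were 7.33 ± 0.398 and 11.1 ± 1.78 (SD, n = 3 each). Groups also lay apart for 28.9% of single tested genes, and the share over ratios of other gene pairs was not taken. The difference of log2 ratios was 0.59, with the higher ratio in the YOD1 libraries (exact permutation test, two-sided, p = 0.1, the smallest that 3 against 3 libraries allow, and 0.2 after Benjamini-Hochberg adjustment over 4 ratios). Leaving out any 1 library gave 0.49 to 0.72, and adding the 3 pseudogenes to H3f3a gave 0.58. On the log2(FPKM + 1) scale the difference was 0.58, and correcting for length and GC content on that scale gave 0.55. The 2 genes are alike in both properties, with longest transcripts of 2514 and 2841 bases and 43.4% and 43.2% GC. This ratio and the 3 given further on were chosen after the values of the genes were seen.

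**Figure D3:**
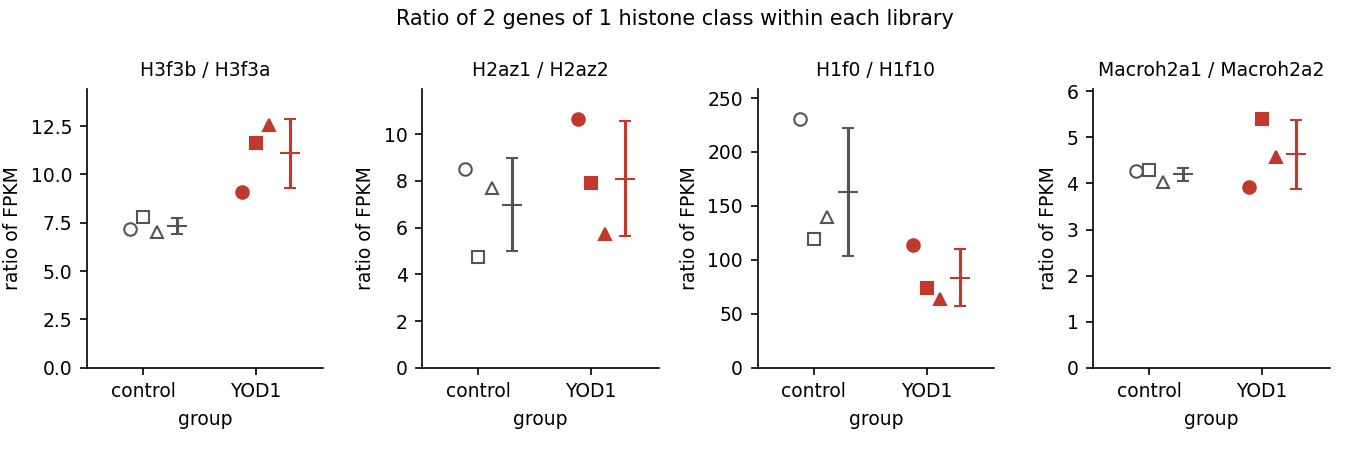
Ratio of FPKM of 2 genes of the same histone class within each library, with control libraries as open symbols and YOD1 libraries as filled ones. Shapes give the replicate number and bars the mean and SD of 3 libraries. Groups lie apart for H3f3b to H3f3a (7.02 to 7.78 against 9.10 to 12.5) and for H1f0 to H1f10, and overlap for the other 2 ratios. Of single tested genes, 28.9% have groups that lie apart.

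The promoters of the H3.3 pair are printed because these genes share a protein while their transcripts differ in level. Their estimated fold changes have opposite signs, but neither passed the test (limma adjusted p = 0.276 for H3f3a and 0.556 for H3f3b). Whether the promoters bear on the levels or the changes was not tested. Windows run from 250 bases before to 50 bases after the transcription start, from RefSeq on GRCm38.p6, a build other than the mm8 named in the submitters' processing notes. RefSeq windows were found for 9 of the 10 genes, all but H2ax. Both strands were searched for 3 motifs, and matches are in capitals. CCAAT is bound by the factor NF-Y and reads ATTGG on the other strand. TATAAA is a TATA box and reads TTTATA on the other strand. TGACGTCA is the cAMP response element and reads the same on both strands. The H3f3a window is chr1:180813556-180813855 on the minus strand and the H3f3b window is chr11:116024455-116024754 on the minus strand.

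H3f3a: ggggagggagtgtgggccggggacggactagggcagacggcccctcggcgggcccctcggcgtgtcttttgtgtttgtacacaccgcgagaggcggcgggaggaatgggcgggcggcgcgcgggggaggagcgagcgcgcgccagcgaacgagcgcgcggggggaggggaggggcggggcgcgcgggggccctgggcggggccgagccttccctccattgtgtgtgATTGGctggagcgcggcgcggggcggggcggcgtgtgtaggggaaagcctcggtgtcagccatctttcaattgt

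H3f3b: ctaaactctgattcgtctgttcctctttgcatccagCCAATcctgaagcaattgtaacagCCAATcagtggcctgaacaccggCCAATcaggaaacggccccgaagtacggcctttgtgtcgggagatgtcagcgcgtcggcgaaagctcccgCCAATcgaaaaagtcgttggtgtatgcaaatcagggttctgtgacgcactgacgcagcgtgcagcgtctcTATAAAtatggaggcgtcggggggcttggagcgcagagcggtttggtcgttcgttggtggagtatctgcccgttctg

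The H3f3a window held 1 CCAAT match, on the reverse strand, and the H3f3b window held 4, together with 1 TATAAA match. H2az1 had 3 CCAAT matches, H2az2 had 4, Cenpa 2 and Macroh2a2 had 1, so that 6 of 9 windows held the motif, against 37.4% of all 32851 promoter windows. TATAAA was in 1 of 9 against 13.6%, and TGACGTCA in 0 of 9 against 1.79%. The windows of H1f0, H1f10 and Macroh2a1 held none of the 3 motifs.

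H2A.Z replaces H2A next to transcription starts. H2az1 stood at 492, 286 and 364 FPKM in the controls and at 526, 386 and 383 FPKM in the YOD1 libraries. Replicate 1 was the highest in both groups and the groups overlapped. This gave a log2 fold change of 0.20 with an interval of -0.28 to 0.68 (limma adjusted p = 0.602). It was 0.01 without control 2, 0.05 without YOD1 library 1, 0.40 without control 1 and 0.31 with median-ratio scaling. After length and GC correction it was 0.05. H2az2 stood at 57.7, 60.5 and 47.3 FPKM in the controls and 49.3, 48.9 and 66.9 FPKM in the YOD1 libraries, a log2 fold change of -0.01 with an interval of -0.37 to 0.35 (limma adjusted p = 0.975) whose sign turned in several settings, median-ratio scaling among them (0.10). The highest and the lowest value of H2az2 came from YOD1 library 3 and control 3. The ratio of H2az1 to H2az2 was 6.99 ± 2.00 and 8.10 ± 2.47 (SD, n = 3 each), with overlapping groups (exact permutation test, p = 0.6, adjusted 0.6).

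H2ax encodes H2A.X, whose phosphorylated form recruits repair factors. It stood at 21.1, 23.7 and 26.0 FPKM in the controls and at 30.3, 49.3 and 24.4 FPKM in the YOD1 libraries. YOD1 library 2 was by far the highest, library 1 lay above all controls and library 3 lay among them. The log2 fold change was 0.48 with an interval of -0.03 to 0.99 (limma adjusted p = 0.258), the highest of the 10 on this scale, although H1f10 was higher with a pseudocount of 0.1 (0.57 against 0.49). For H2ax it was 0.20 without YOD1 library 2 and 0.18 after length and GC correction. YOD1 library 2 was also the one with the highest Yod1 value (7.56 FPKM) and the highest rRNA share (4.12%), and whether these are linked was not tested. By the smallest Euclidean distance between centred log2(FPKM + 1) values over the 6 libraries, the 5 tested genes most like H2ax were Uba7, Adar, Cp, Shisa5 and Sarnp, at distances of 0.291 to 0.370. Uba7 activates the ubiquitin-like modifier ISG15, Adar edits adenosines in RNA, and Cp is ceruloplasmin. Uba7 stood at 3.15 FPKM in YOD1 library 2 against 0.781 to 1.32 FPKM in the other 5 libraries, a shape that the choice by distance to H2ax fixed.

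Cenpa encodes the H3 variant of centromeric nucleosomes, which is loaded after mitosis. It stood at 17.3, 15.7 and 19.7 FPKM in the controls and at 27.8, 24.0 and 18.0 FPKM in the YOD1 libraries. Libraries 1 and 2 with YOD1 lay above all controls, and library 3 lay among them. Its log2 fold change was 0.37 with an interval of -0.01 to 0.76 (limma adjusted p = 0.251). It was 0.24 without YOD1 library 1, 0.54 without YOD1 library 3 (adjusted p = 0.112, the lowest of any of the 10 genes in any setting, over a range of 0.112 to 0.502 for Cenpa) and 0.44 after length and GC correction. The longest annotated Cenpa transcript (3806 bases) exceeds its longest protein-coding one (1466 bases), so the length used in that correction may not be that of the measured RNA.

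Linker histones bind the DNA between nucleosomes. H1f0 encodes H1.0, which builds up in cells that leave the cycle or differentiate. It stood at 475, 329.6 and 221.6 FPKM in the controls and at 292, 251 and 228 FPKM in the YOD1 libraries. The controls spread over a wider range than the YOD1 libraries and enclosed all of them, with coefficients of variation of 37.1% and 12.6%. On the log2 scale the fold change was -0.35 with an interval of -0.90 to 0.20 (limma adjusted p = 0.414), and it was -0.08 without control 1, -0.63 without control 3 and -0.24 with median-ratio scaling. H1f10 encodes H1.10, a linker histone from a gene outside the histone clusters. It stood at 2.06, 2.76 and 1.59 FPKM in the controls and at 2.57, 3.40 and 3.58 FPKM in the YOD1 libraries. YOD1 libraries 2 and 3 lay above all controls and library 1 lay among them. This gave a log2 fold change of 0.42 with an interval of 0.01 to 0.84 (limma adjusted p = 0.236, and under 0.05 before adjustment), and it turned to -0.39 after length and GC correction. H1f10 is the richest of the 10 in GC (71.3%, against 43.2% to 62.3% for the others), and the cause of that turn was not tested.

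The ratio of H1f0 to H1f10 was 231, 119 and 139 in the controls and 113, 73.7 and 63.7 in the YOD1 libraries. The groups did not overlap, as was so for 28.9% of single tested genes. The difference of log2 ratios was -0.95 (exact permutation test, two-sided, p = 0.1, the smallest allowed, adjusted 0.2). Leaving out any 1 library gave -1.19 to -0.67. On the log2(FPKM + 1) scale the difference was -0.78, and the length and GC correction, made on that scale, brought it to -0.06.

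MacroH2A variants carry a large domain behind their histone part. Macroh2a1 stood at 15.0, 14.3 and 16.7 FPKM in the controls and at 15.2, 15.2 and 13.6 FPKM in the YOD1 libraries. Only YOD1 library 3 lay outside the controls. The log2 fold change was -0.06 with an interval of -0.35 to 0.23 (limma adjusted p = 0.805), and 0.04 with median-ratio scaling. Macroh2a2 stood at 3.53, 3.34 and 4.13 FPKM in the controls and at 3.88, 2.81 and 2.97 FPKM in the YOD1 libraries. Its log2 fold change was -0.15 with an interval of -0.52 to 0.22 (limma adjusted p = 0.614), and it was -0.08 without control 3, -0.08 without YOD1 library 2, -0.26 without YOD1 library 1 and -0.06 with median-ratio scaling. The ratio of Macroh2a1 to Macroh2a2 was 4.20 ± 0.136 and 4.63 ± 0.742 (SD, n = 3 each), with overlapping groups (exact permutation test, p = 0.5, adjusted 0.6).

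Replication-dependent histones, chosen for comparison with their rise already known, were mostly above 0 in log2 fold change. Of 60 such symbols 28 were tested, of which 11 were called higher and 0 lower (0.444% of all tested genes were called higher and 0.0348% lower), with a median log2 fold change of 1.17. The tested genes carry H4, H2B and H1 symbols. None with a replication-dependent H2A or H3 symbol was among them, although most of the variant genes are of these classes. The 3 of lowest p were histone H4 genes, all past the threshold. H4c12 stood at 2.05, 0.566 and 2.33 FPKM in the controls and at 16.8, 18.7 and 14.3 FPKM in the YOD1 libraries (log2 fold change 2.80, limma adjusted p = 0.00378). H4c2 and H4c11 had log2 fold changes of 2.35 and 1.90. The filter of 1 FPKM in 3 libraries lets a gene in through its YOD1 values alone. Only 7 of the 28 reached 1 FPKM in all 3 controls, with a median of 0.77 and 1 called, whereas all 10 variant genes did so, so the medians of the lists are not on the same footing. The list also has short transcripts, with a median length of 578.5 bases against 2115 for the variant histones and 3023 over all tested genes. After length and GC correction the calls higher over all genes fell from 51 to 13. How far the replication-dependent histones moved with that correction was not tested. The rRNA share moved with the replication-dependent histones (0.473% to 0.867% in controls, 2.30% to 4.12% in YOD1 libraries), and its part in their values was not tested. The 17 tested genes with the stem-loop element at up to 3 mismatches had a median of 1.09 and the 11 without it 1.58. Their order turned with 4 mismatches allowed, at 1.21 for 19 genes and 1.13 for 9. H4 genes are close in sequence, so single values are uncertain.

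The genes that deposit variant histones were read from lists that hold no variant histone. For H3.3 deposition, 6 of 8 genes were tested and 0 were called, with a median of -0.15. Ubn1, a subunit of the HIRA chaperone complex, stood at 19.2, 18.6 and 14.3 FPKM in the controls and 11.8, 11.8 and 6.72 FPKM in the YOD1 libraries, with a log2 fold change of -0.75 that did not pass (limma adjusted p = 0.127). Hira itself had -0.33 and Cabin1, another partner, had -0.20, neither past the threshold (limma adjusted p = 0.233 and 0.444).

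For H2A.Z exchange all 13 genes were tested, 0 were called and the median was 0.06. Anp32e, the chaperone that removes H2A.Z, stood at 37.8 ± 3.52 and 25.7 ± 6.16 FPKM (SD, n = 3 each), a fold change of -0.56 on the log2 scale with a limma adjusted p of 0.150. Ruvbl2, an ATPase shared by the exchange complexes, had a log2 fold change of 0.48, and Srcap, the motor of 1 of them, had -0.54 (limma adjusted p = 0.164 and 0.210).

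For CENP-A deposition 7 of 8 genes were tested, 0 were called and the median was -0.24. Hjurp, the chaperone of CENP-A, stood at 65.4 ± 2.84 and 52.5 ± 6.24 FPKM (SD, n = 3 each), a fold change of -0.32 on the log2 scale with a limma adjusted p of 0.210, whereas Cenpc1, which binds CENP-A nucleosomes, had -0.59 and Mis18a, a licensing factor, had 0.38, neither past the threshold (limma adjusted p = 0.134 and 0.302). The Cenpa fold change was above 0 (0.37) where that of its chaperone was below 0. Mitotic genes, 10 of 10 tested, had 0 calls and a median of -0.30, with Bub1 at -0.95, Mki67 at -0.90 and Top2a at -0.998 (limma adjusted p = 0.0976, 0.0984 and 0.155).

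For H2A.X signalling at DNA breaks 8 of 11 genes were tested, 0 were called and all 8 had log2 fold changes below 0, as did 7307 of all 11483 tested genes, with a median of -0.35 against -0.10. Mdc1, the reader of phosphorylated H2A.X, stood at 30.0 ± 3.45 and 21.01 ± 2.73 FPKM (SD, n = 3 each), a fold change of -0.49 on the log2 scale with a limma adjusted p of 0.131, and Brca1 and Rad50 had -0.53 and -0.51 (limma adjusted p = 0.214 and 0.217). The list has long transcripts, with a median length of 5532 bases against 3023 over all tested genes and 2115 for the 10 variant histones. For a list of factors that act on stem-loop histone genes or their transcripts, 7 of 9 were tested, 0 were called and the median was -0.10. Npat, the activator of histone clusters, had -0.54 (limma adjusted p = 0.176), Lsm10 had -0.13 and Cpsf3, the nuclease that cuts the transcript, had 0.12 (limma adjusted p = 0.553 and 0.663).

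**Figure D4:**
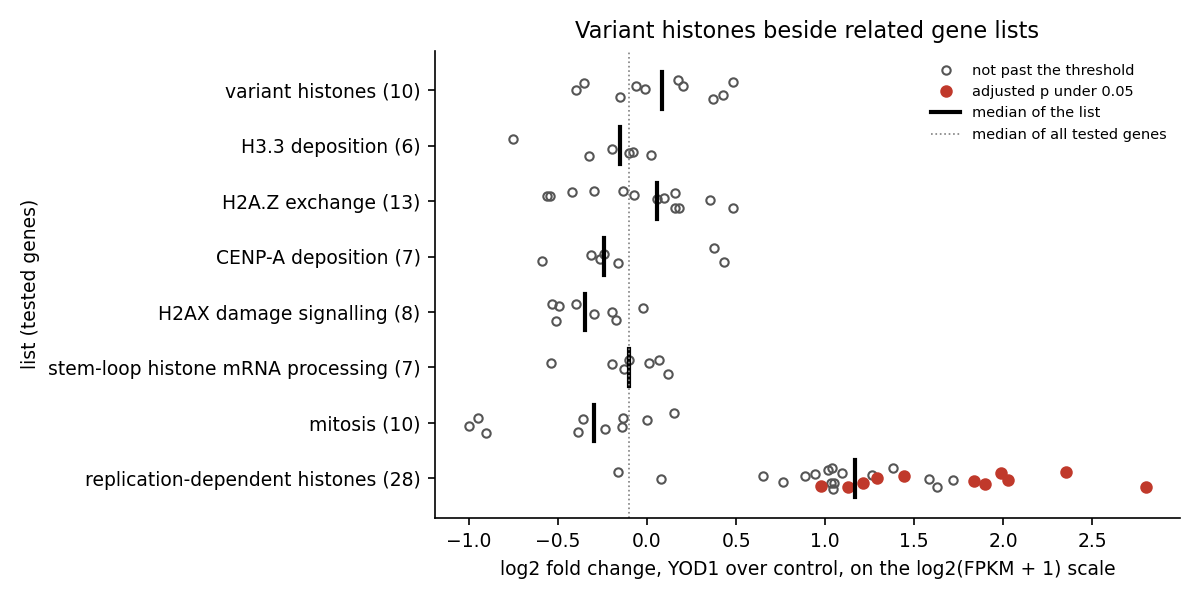
Log2 fold change, YOD1 over control, on the log2(FPKM + 1) scale for each tested gene of 8 lists, with the number tested in brackets. Black bars are list medians, the dotted line is the median of all tested genes (-0.10) and filled points passed the limma test. Variant histones centre on 0.08 with 0 filled points, and the replication-dependent histones centre on 1.17 with 11, while the 7 of them that reached 1 FPKM in all controls centre on 0.77 with 1. Median transcript lengths are 2115 bases for the variant and 578.5 bases for the replication-dependent histones. The tested replication-dependent genes carry H4, H2B and H1 symbols only.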

How the data were processed

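Poly(A) RNA of 6 libraries was measured. The authors deposited a single table of FPKM by gene and library, per the file headers. The same deposited table holds a ratio of group means, the log2 of that ratio and, for each gene, the authors' p-value and q-value. HISAT2 2.0, StringTie 1.3.0, Bowtie 0.12.2 and mm8 are named in the submitters' processing notes without roles. Strand and the authors' test are not given in the sources used here. Unused sample columns numbered 0.

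FPKM was transformed to log2(FPKM + 1), which understates changes of low genes. A gene was tested if 3 of 6 libraries reached 1 FPKM (11483 genes). The test was limma 3.58.1 in R 4.3.3 (intensity trend, two-sided, Benjamini-Hochberg), checked on simulated data. Intervals are moderated 95% intervals. An exact permutation of 3 against 3 cannot go below 0.1. FPKM holds no depth.

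The genes and lists were chosen with earlier results of these data known. Named beyond the 10 genes were Yod1, the 3 genes of lowest p per list, the 5 genes most like the gene of largest log2 fold change on this scale, and the related loci of H3f3a. Transcripts, and the stem-loop element derived from them, came from GENCODE M21, and lengths were matched for 99.2% of tested genes. Ratios used scipy 1.17.1 and plots matplotlib 3.10.9. A marker of the tubular list is not reported here.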

Additional observations from a re-analysis of the deposited data

How the results depend on the processing

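In the 14 alternatives to the fit described, 0 of the 10 variant histone genes were called, with a lowest limma adjusted p of 0.112. A fold threshold on the calls of the main fit could only remove genes, so it is not counted here. The sign held in all settings for 7 genes. H2az2 turned to 0.10 with median-ratio scaling, 0.026 and 0.060 without controls 1 and 2, and 0.060 and 0.066 without YOD1 libraries 1 and 2, and ran from -0.156 to 0.066 with 1 library left out. H1f10 turned to -0.39 after length and GC correction and Macroh2a1 to 0.044 with median-ratio scaling. The ratio of H2az1 to H2az2 (main difference 0.21) turned to -0.049 without control 2 and -0.010 without YOD1 library 1, and was at most 0.438 with 1 library left out. The cause was not tested. H1f10 and Macroh2a2 were not tested under the filter at 5 FPKM. Over all genes 55 were called, against 169 with median-ratio scaling (160 higher, 9 lower), 18 after length and GC correction (13 higher, 5 lower), 32 after rescaling without rRNA genes, and 19 to 242 with 1 library left out. Without any filter limma called 0 of 28789, with 1411 higher and 2016 lower at an unadjusted p under 0.05. The replicate block gave 41 calls and 0 among the 10 genes. Same-numbered libraries correlated at 0.30, -0.12 and -0.11 in their deviations, and differently numbered ones at -0.41 to 0.34. With 3 libraries per group, these values cannot decide whether the numbers pair them.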
